A study of Rattus norvegicus with 232 samples.

Results

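The 9 genes of the myelin sheath followed here, Mbp, Mog, Mag, Mobp, Cnp, Cldn11, Mal, Opalin and Ermn, were chosen by name and measured in brains of the Hybrid Rat Diversity Panel (HRDP). They are 9 of the 20859 genes in the RefSeq gene table, and all 9 were measured. In the brain, myelin is made by oligodendrocytes, which wrap axons in many turns of compacted membrane and so speed conduction. Mbp and Mobp are basic proteins of compact myelin, Mog and Mag are surface proteins of the outer and the axon-facing membrane, Cldn11 forms the tight junctions between the wraps, and Mal is a proteolipid of membrane rafts. Cnp is a cyclic nucleotide phosphodiesterase of the cytoplasmic channels of myelin, Ermn is an actin-binding cytoskeletal protein of mature oligodendrocytes, and Opalin is an oligodendrocyte transmembrane glycoprotein. These genes are switched on late in oligodendrocyte differentiation by factors that include SOX10 and MYRF, and they serve widely as markers of the mature cell.

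Total RNA, depleted of ribosomal RNA, had been sequenced from brains of untreated rats of inbred strains. The labels named no transgene or deletion for any group, which leaves out variants that a strain itself may carry. Young adult males are described, and a single side of each brain, cut sagittally, was used. The gene table held 214 libraries of 197 animals from 74 strains, and 69 strains with 2 or more animals (192 animals) were compared. Of these, 30 were HXB/BXH recombinant inbred strains (88 animals), derived from BN-Lx/Cub and SHR/OlaIpcv and, with these progenitors, maintained at an institute in Prague. A further 16 were FXLE/LEXF recombinant inbred strains (40 animals) and 23 were classic inbred strains (64 animals), the latter including BN-Lx/Cub and SHR/OlaIpcv. Values were on a log2 scale and transformed by the authors, so that sequencing depth was unknown. Library medians ranged from 8.18 to 8.42. The values were not per length, and levels are therefore compared between animals and strains, never between genes. In 4 of the 214 libraries, all 3 of LEW/Crl and animal 2 of HXB17/Ipcv, the Y-linked gene Kdm5d lay between 9.32 and 9.64, below its range of 10.21 to 11.39 in the other 210 libraries, although the rats were labelled male where a sex was given. The library farthest from the median library over all genes was animal 1 of BN-Lx/Cub (median absolute deviation 0.277, against 0.115 for the median library). Next came animal 1 of SR/JrHsd (0.264) and a library of animal 1 of SHR/OlaIpcv (0.253). The comparisons of BN-Lx/Cub with SHR/OlaIpcv and with the HXB/BXH strains are also given without animal 1 of BN-Lx/Cub. The place of BN-Lx/Cub among the strains is given without that animal too. In whole tissue, fewer oligodendrocytes and less RNA per oligodendrocyte cannot be told apart.

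In the authors' assembled transcripts on rn6, Mbp spanned chr18:79326738-79499503, Mog chr20:2004052-2080404, Mag chr1:89345007-89360951, Cnp chr10:88490798-88497356 and Cldn11 chr2:115735020-115836846. On the same build Mal spanned chr3:120209647-120233655, Opalin chr1:260324028-260341723 and Ermn chr3:44057142-44086099. Mobp was placed on chromosome 8. Promoters of 4 genes are shown because 2 of them, Mag and Cnp, and the other 2, Mobp and Mal, varied apart from each other between animals, as described further on. Each window holds 250 bases before and 30 bases after the transcription start in RefSeq on GRCr8, in the direction of transcription. Capitals mark matches, on either strand, to ACAAAG or ACAATG, the core recognized by SOX proteins, and to CTGGNAC, the core recognized by MYRF. The windows are Mag at chr1:95291015-95291294 (minus strand), Cnp at chr10:86011254-86011533 (plus strand), Mobp at chr8:128746982-128747261 (plus strand) and Mal at chr3:135341394-135341673 (minus strand).
Mag: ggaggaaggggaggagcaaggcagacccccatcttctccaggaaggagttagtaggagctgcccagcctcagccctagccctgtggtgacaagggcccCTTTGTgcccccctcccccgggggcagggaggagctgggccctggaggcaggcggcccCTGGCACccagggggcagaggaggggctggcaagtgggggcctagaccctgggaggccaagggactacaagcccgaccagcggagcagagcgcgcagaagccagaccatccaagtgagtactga
Cnp: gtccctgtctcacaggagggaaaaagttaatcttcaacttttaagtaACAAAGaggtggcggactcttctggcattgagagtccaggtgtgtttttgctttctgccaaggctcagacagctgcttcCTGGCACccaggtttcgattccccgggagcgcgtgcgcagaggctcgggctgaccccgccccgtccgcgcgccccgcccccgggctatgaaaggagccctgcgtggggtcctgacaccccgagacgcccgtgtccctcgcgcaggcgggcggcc
Mobp: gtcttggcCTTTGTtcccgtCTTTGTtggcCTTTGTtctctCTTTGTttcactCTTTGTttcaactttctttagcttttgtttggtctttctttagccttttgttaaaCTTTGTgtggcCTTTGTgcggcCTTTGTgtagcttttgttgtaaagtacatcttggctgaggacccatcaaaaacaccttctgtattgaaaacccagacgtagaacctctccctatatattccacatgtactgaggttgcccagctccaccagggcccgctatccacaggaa
Mal: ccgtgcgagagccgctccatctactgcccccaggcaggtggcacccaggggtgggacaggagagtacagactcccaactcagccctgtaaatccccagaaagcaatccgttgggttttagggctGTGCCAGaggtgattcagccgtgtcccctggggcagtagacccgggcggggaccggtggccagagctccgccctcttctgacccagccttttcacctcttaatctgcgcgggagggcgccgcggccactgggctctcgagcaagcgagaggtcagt
The Mobp window held 8 copies of ACAAAG, all on the opposite strand and therefore read as CTTTGT, and no match to CTGGNAC. Only 3 of 33469 rat promoter windows, or 0.00896%, held as many copies or more. Mag and Cnp each had 1 match to ACAAAG and 1 to CTGGNAC, and Mal had 1 match to CTGGNAC alone. Promoter windows were at hand for 7 of the 9 genes (8 windows, since Mbp had 2), and those of Mog and Ermn were not used here. Of the 8 windows, 5 held ACAAAG, 2 held ACAATG and 6 held CTGGNAC, while these motifs occurred in 17.9%, 12.6% and 16.7% of all windows. The E-box CANNTG, which is not capitalized and can overlap the others, was in 7 of the 8 windows and in 69.7% of all. A match describes the letters of the window and not a site in use.

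The first question was how much of the variation of each gene lay between strains, given here as broad-sense heritability, the R2 of a layout with strain as the only factor. Strain differed for 8 of the 9 genes (limma F-test over 69 strains and 192 animals, Benjamini-Hochberg adjusted over all genes), whereas the same test called 36.8% of all 20859 genes. Mag, the adhesion protein of the axon-facing membrane, was the exception with an R2 of 0.443 and an adjusted p of 0.0736. R2 was highest for Mog (0.699, adjusted p = 6.88e-11) and Mobp (0.683, adjusted p = 2.10e-10), above those of 96.3% and 95.7% of all genes. Mal followed with 0.628 (adjusted p = 3.84e-07), Cldn11 with 0.622 (adjusted p = 8.16e-07) and Opalin with 0.592 (adjusted p = 1.08e-05). R2 was lower for Mbp (0.534, adjusted p = 0.000990), Ermn (0.533, adjusted p = 0.000895) and Cnp (0.494, adjusted p = 0.0112). The median R2 of all genes was 0.434, and the numbers of strains and animals alone give an R2 of 0.356 in the absence of any strain effect. So Mag sat close to the middle gene, at the percentile 54.4, and Cnp at 74.7. With the sequencing batch as a covariate all 9 genes were called, as were 57.3% of all genes. Leaving out the animals numbered 1, 2 or 3 in the labels left 6, 5 and 6 genes called, where 15.7%, 14.9% and 29.3% of all genes were called.

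**Figure D1:**
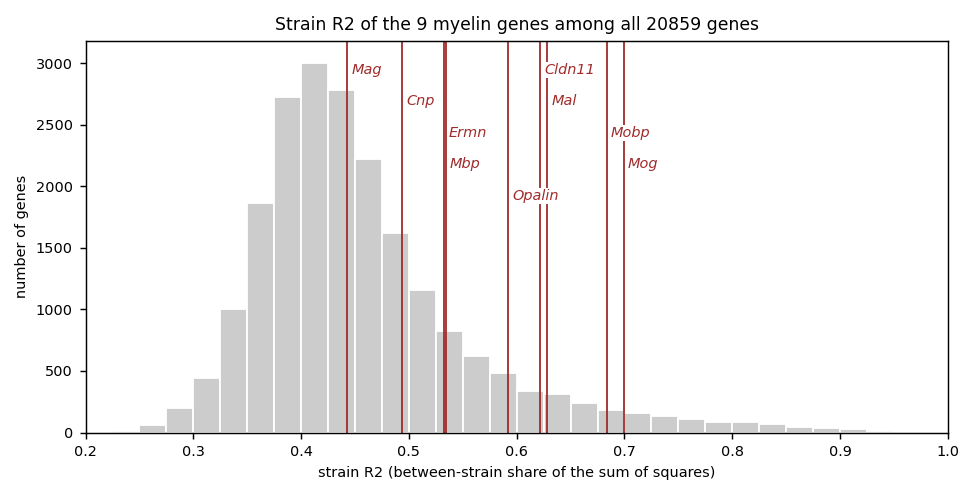
Histogram of the strain R2 (x axis, no unit) of all 20859 genes (y axis, number of genes per bin), with a vertical line for each myelin gene. Mag lies near the peak of the distribution at 0.443, and Mog and Mobp lie in its right tail at 0.699 and 0.683.

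The spread of the strain levels was modest, between 1.51-fold and 2.22-fold from the lowest to the highest of the 69 strain means. Mobp had the widest range, from 14.69 in SHRSP/A3NCrl, with its 2 animals at 14.61 and 14.77, to 15.84 in HXB15/Ipcv, with its 3 animals at 15.75, 15.87 and 15.89. The animals of these 2 strains were far apart, by more than the SD within strains of 0.211. Ermn came next, from 11.19 in BXH13/Cub (animals 11.15, 11.17 and 11.26) to 12.23 in BN-Lx/Cub (11.95, 12.05 and 12.69), a 2.05-fold range. Without animal 1 of BN-Lx/Cub, the highest of these values, the mean of that strain for Ermn ranked 64 of 69 from the lowest, and MWF/Hsd was highest at 12.13, a 1.92-fold range. Mbp ranged from 16.68 in BXH13/Cub (16.46, 16.75 and 16.82) to 17.52 in FXLE15/Stm (17.52 and 17.53), or 1.80-fold. Mal ranged from 13.11 in BXH13/Cub to 13.94 in SHR/OlaIpcv, and the gap of 0.15 between SHR/OlaIpcv and the next strain, HXB25/Ipcv, was the only gap between neighbouring strains of any of the 9 genes that exceeded the SD within strains (0.143 for Mal). Everywhere else along the order of strains, neighbours differed by less than that spread, and the median gap was between 0.00432 (Cnp) and 0.0113 (Mobp) log2 units. Mag spanned 12.44 in SHRSP/A3NCrl to 13.24 in HXB29/Ipcv, Cnp 14.18 to 14.77 in the same strains, and Opalin 11.43 in BXH13/Cub to 12.13 in HXB5/Ipcv, or to 12.14 in BN-Lx/Cub if its animal 1 is left out. Cldn11 went from 12.82 in BXH13/Cub to 13.47 in SHR/OlaIpcv. Mog went from 11.81 in BXH13/Cub to 12.44 in HXB7/Ipcv.

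**Figure D2:**
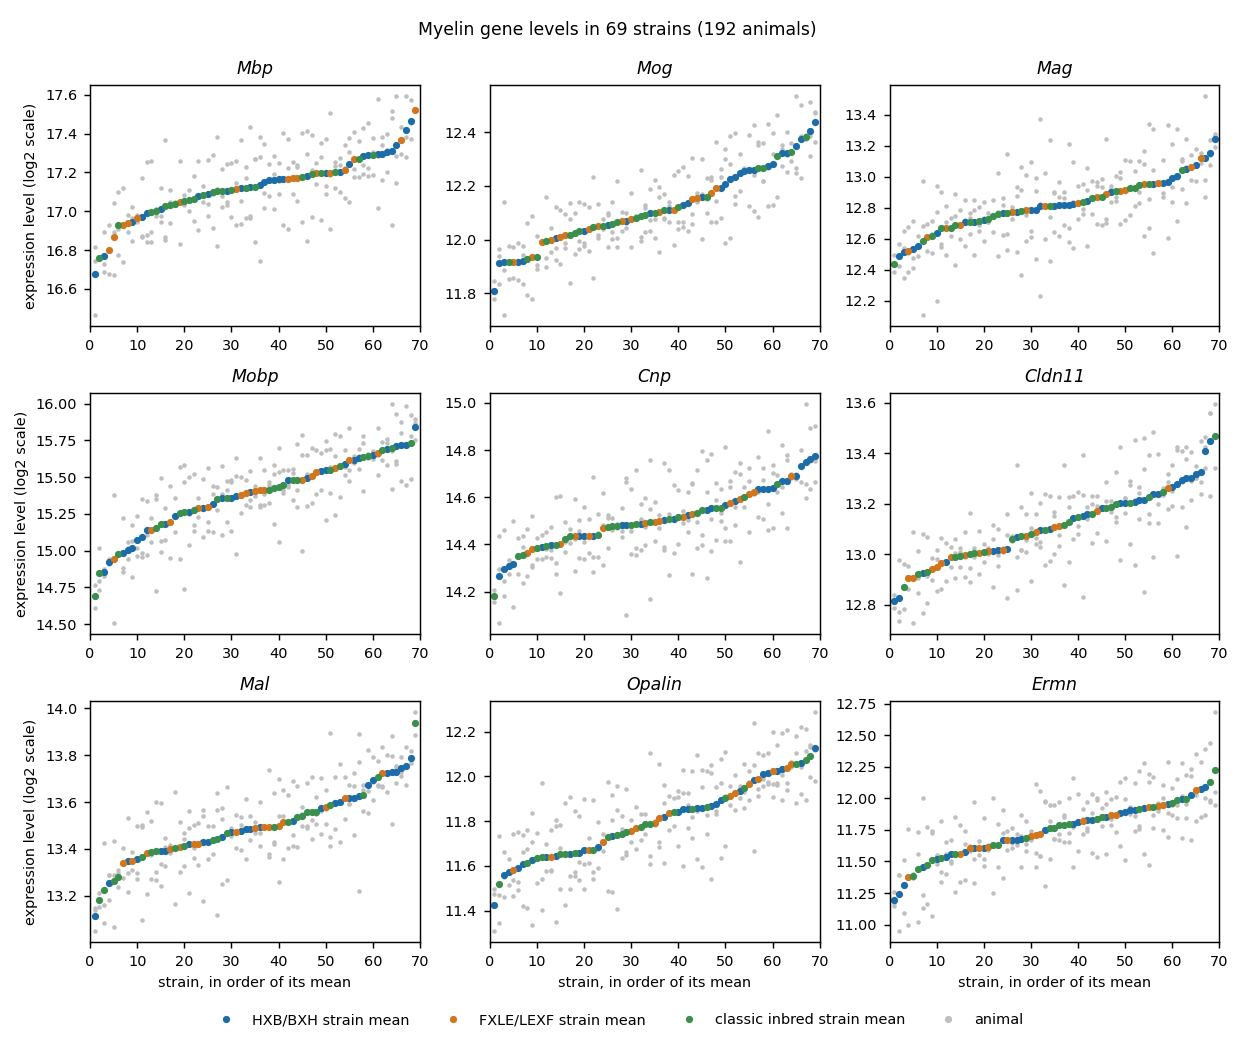
Level of each gene (y axis, log2 scale, a separate scale for each gene) in 69 strains in order of their mean (x axis), with a coloured point for each strain mean and a grey point for each of the 192 animals. Strains of the 3 panels are mixed along the order, and animals of neighbouring strains overlap.

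A few strains were low or high for most of the set. BXH13/Cub, an HXB/BXH strain, was among the 5 lowest strains for all 9 genes and the lowest of all 69 for 6 of them, Mbp, Mog, Cldn11, Mal, Opalin and Ermn. The mean of the 9 genes, each centred on its mean over the 192 animals, was -0.44, -0.37 and -0.35 in its 3 animals. BXH10/Cub was among the 5 lowest for 6 genes, with a mean of -0.27 (animals -0.37, -0.26 and -0.18), and SHRSP/A3NCrl had a mean of -0.27 (animals -0.40 and -0.14). At the upper end stood HXB15/Ipcv with 0.209 and BXH9/Cub with 0.206. Strain accounted for an R2 of 0.636 of this mean, whose SD was 0.111 between strain means and 0.104 within strains. Beside the low value of BXH13/Cub, the mean of 7 neuron markers there was 13.43, rank 61 of 69 strains from the lowest, that of 6 astrocyte markers was 13.42, rank 12, and that of 6 Hox genes that mark the hindbrain was 3.64, rank 15. The highest ranks there were those of 4 olfactory bulb genes (9.01, rank 68) and 4 striatal genes (10.96, rank 67). Of these bulb genes Tbr1 had its highest strain mean in BXH13/Cub (10.95), while Doc2g, Eomes and Cdhr1 were highest in COP/CrCrl or BXH6/Cub. The olfactory bulb genes also ranked high in BXH10/Cub (62) and SHRSP/A3NCrl (64) and low in BXH9/Cub (2) and HXB15/Ipcv (10), while the striatal genes were lowest of all in SHRSP/A3NCrl. The hindbrain genes ranked low in BXH10/Cub (6) and SHRSP/A3NCrl (14) too, and ranked 37 in BXH9/Cub, 47 in HXB15/Ipcv and 69, the highest, in HXB31/Ipcv, the strain with the third highest mean of the 9 genes. The neuron markers ranked 12 in BXH10/Cub and 19 in SHRSP/A3NCrl, unlike in BXH13/Cub, and 28 in BXH9/Cub and 41 in HXB15/Ipcv. The astrocyte markers ranked 21, 26, 36 and 65 in these 4 strains in the same order. The part of tissue make-up in these values was not tested.

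Since the panels have different founders, the strain effect was also tested within each. Within the HXB/BXH panel 8 of the 9 genes differed between strains, all but Mag, against 19.1% of all genes. Mobp reached an R2 of 0.787 there (adjusted p = 6.60e-10) and Mog 0.737 (adjusted p = 3.45e-07). Within FXLE/LEXF Opalin alone was called, with an R2 of 0.732 and an adjusted p of 0.0188, against 5.00% of all genes. Within the classic inbred strains 4 genes were called, Mobp, Mog, Cldn11 and Mal, against 18.6% of all genes. Without the animals numbered 1, 2 or 3, the counts were 5, 4 and 3 in HXB/BXH, 0, 0 and 1 in FXLE/LEXF and 1, 0 and 3 in the classic strains. The shares of all genes called fell as well, to 8.3%, 9.12% and 8.2% in HXB/BXH and 9.74%, 6.08% and 10.7% in the classic strains, and were 0.916%, 0.475% and 8.54% in FXLE/LEXF. Mean levels were close in the 3 panels. No sequencing batch held libraries of both HXB/BXH and FXLE/LEXF strains, so panel and batch cannot be told apart between these panels. No myelin gene differed between panels (limma on strain means), and of all genes 0, 0 and 1 were called in the 3 contrasts, or 0%, 0% and 0.00479%, with an unadjusted p under 0.05 in 1234, 484 and 1664 genes. The largest difference was that of Cldn11, 13.17 ± 0.16 (SD, n = 30 strains) in HXB/BXH and 13.03 ± 0.098 (SD, n = 16 strains) in FXLE/LEXF, a difference of 0.13 with a 95% interval of 0.05 to 0.22 and an adjusted p of 0.836 from limma.

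The next question was whether the 9 genes share 1 pattern. Over the 69 strain means all 36 pairs of genes had a Pearson r above 0, with a median of 0.355 and a range of 0.0424 to 0.781. Over the deviations of the 192 animals from their strain means the median was nearly the same, 0.341, but 7 of the 36 pairs fell below 0 and the range was -0.334 to 0.753. These correlations share libraries and carry no test. Mog followed the mean of the other 8 genes most closely within strains (r = 0.760, Spearman rho = 0.753, and 0.759 without the 2 farthest animals), higher than 99.99% of the genes outside the set. Cldn11 (0.614), Mbp (0.603) and Ermn (0.536) came next. Mag hardly followed the others within strains (r = 0.0825, rho = 0.0519, and 0.0760 without the 2 farthest animals), and 65.2% of the genes outside the set lay below it. Over strain means Mag had an r of 0.413 with the other 8, which fell to 0.316 without the 2 farthest strains.

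A pair of groups stood out in the correlations between animals of a strain, and they were named after the values were seen. Mbp, Mag and Cnp varied together (r = 0.545 to 0.705), as did Mobp, Mal and Ermn (r = 0.592 to 0.753). Between the groups the median of the 9 pairs was -0.122 and the range was -0.334 to 0.357, with Mag and Mal at the lower end and Mbp and Mobp at the upper end. Over strain means the first group stayed tight (0.655 to 0.781), the second was looser (0.108 to 0.517), and the median between the groups was 0.295. Within each of the 15 sequencing batches that had 6 or more animals (186 animals), Mobp and Ermn correlated above 0 in all 15 (0.434 to 0.936) and Mag and Cnp in all 15 (0.00268 to 0.972). Other pairs of these groups had exceptions, Mbp and Cnp with 13 of 15 above 0 (lowest -0.282) and Mal and Ermn with 14 of 15 (lowest -0.0414). Mag and Mobp correlated above 0 in only 2 of the 15, with a median of -0.390. The batch itself moved with 5 of the 9 genes beside strain (Mog, Cldn11, Mag, Opalin and Mbp), against 12.4% of all genes, and with 4 by the batch numbers of the sample titles (4.44% of all genes). In these batch tests each library entered singly, so that several libraries of the same animal counted as separate samples. The median r of the 36 pairs was 0.221 over batches, below the pooled 0.341.

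**Figure D3:**
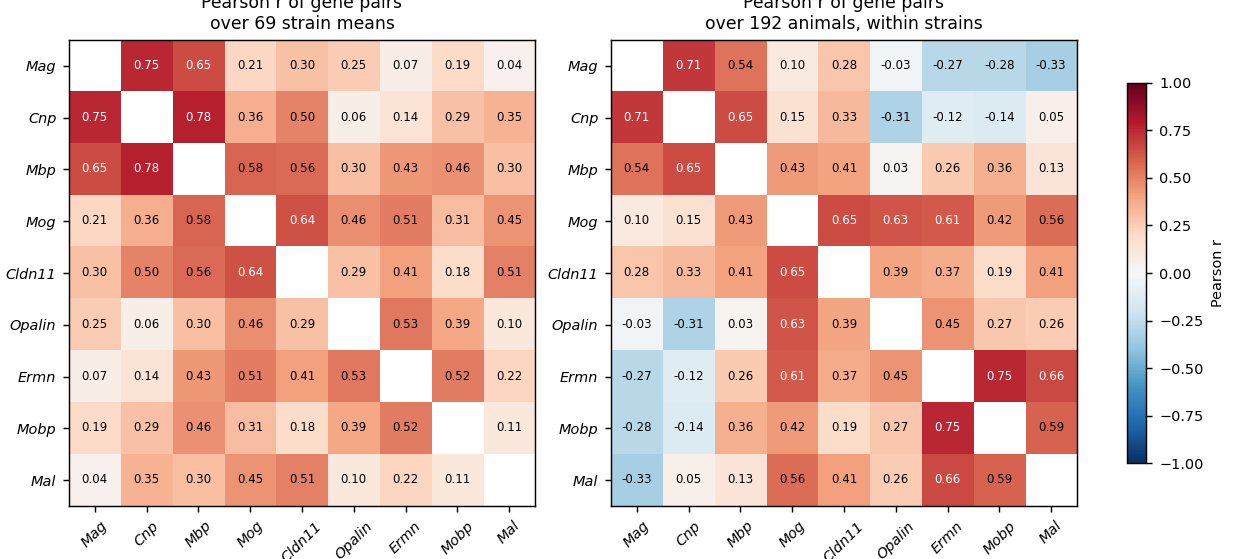
Pearson r of each pair of the 9 genes, over 69 strain means (left) and over deviations of 192 animals from their strain mean (right), on a colour scale from -1 to 1. Pairs of Mag, Cnp and Mbp and pairs of Ermn, Mobp and Mal are positive on both sides, and on the right Mag with Mal is lowest at -0.334.

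Repeat libraries gave the spread that arises without any difference between animals. The gene table held SHR/OlaIpcv animal 1 in 12 libraries and animal 4 in 6, each from another batch, read here as repeats of 1 animal. Over the 12 libraries the SD of the 9 genes was 0.568 (Mal) to 1.65 (Mag) times the SD between animals of a strain, with a median of 1.11, and over the 6 libraries 0.470 (Mobp) to 1.47 (Opalin) times, with a median of 0.910. Mag spread from 12.06 to 13.30 over the 12 libraries and Mobp from 14.73 to 15.21. For Mal and Mobp the repeats of animal 1 spread less than animals of 1 strain did, and for the other 7 genes they spread more. Some pairs of genes that varied together between animals did so among these repeats as well, and others did not. Mag and Cnp had an r of 0.886 over the 12 libraries (rho = 0.853, and 0.802 without the 2 farthest), Mobp and Ermn 0.675 (rho = 0.455, and 0.562) and Mag and Mobp -0.484 (rho = -0.378, and -0.523). Mbp correlated with Mag at 0.922 (rho = 0.818, and 0.847) and with Cnp at 0.818 (rho = 0.832, and 0.804). Mal correlated with Ermn at 0.550 (rho = 0.692, and 0.638) but with Mobp at 0.278 (rho = 0.280, and -0.0867). The median over all 36 pairs was 0.00604, and 18 pairs were above 0. The 6 libraries of animal 4 gave 0.894 for Mag and Cnp, with rho = 0.429 and an r of -0.410 without the 2 farthest, so that this value rests on those libraries, and -0.494 for Mag and Mobp. Mbp and Cnp had 0.826 there, with rho = 0.429 and -0.377 without the 2 farthest, while Mbp and Mag had 0.988, and 0.993 without them. Mal did not follow its group in animal 4, with an r of -0.455 with Mobp (rho = -0.429, and -0.419) and -0.609 with Ermn (rho = -0.829, and -0.658), while Mobp and Ermn had 0.764 (rho = 0.714, and 0.504).

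**Figure D4:**
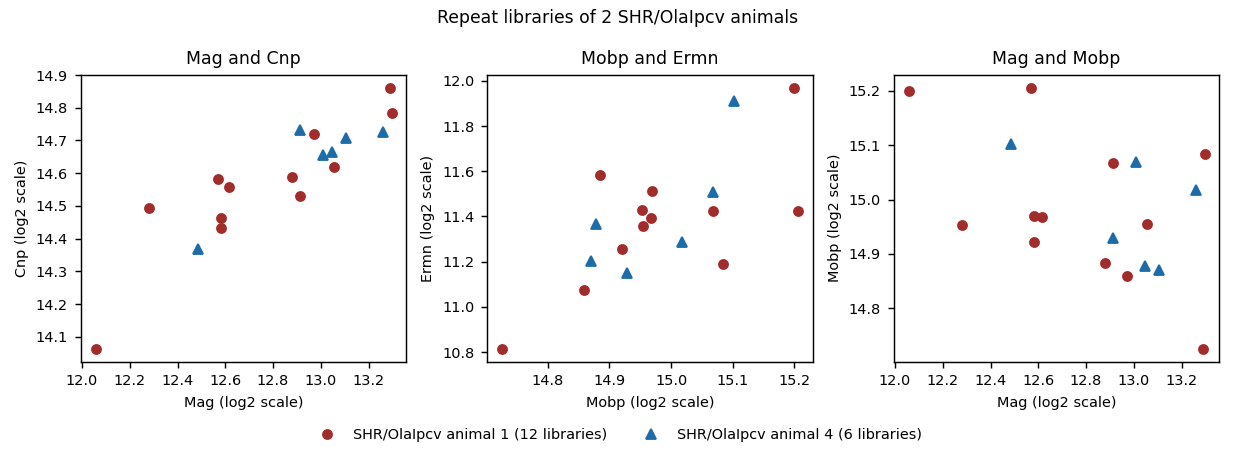
Levels of 3 gene pairs (both axes, log2 scale) in the repeat libraries of 2 SHR/OlaIpcv animals, with a point for each library. In the 12 libraries of animal 1 Mag and Cnp rise together (r = 0.886) while Mobp is lower where Mag is higher (r = -0.484).

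Strain effects beyond the shared level were sought by testing strain with the mean of the other 8 genes as a covariate. The test asks whether a strain effect remains and not how closely a gene follows the others. Mog, which followed the others most closely within strains, had the lowest adjusted p below. Mag, which hardly followed them, had no called strain effect to begin with. For 6 genes a strain effect remained (limma F-test), Mog (adjusted p = 1.25e-13), Mobp (3.57e-10), Mal (2.61e-08), Cldn11 (4.24e-06), Opalin (0.000289) and Ermn (0.00205), in fits with the mean of the others that called 37.2%, 36.1%, 36.5%, 37.4%, 37.4% and 37.2% of all genes in the same order. For Mbp (adjusted p = 0.207), Mag (0.190) and Cnp (0.173) none was detected, in fits that called 38.8%, 41.5% and 38.6% of all genes. Without the animals numbered 2, Opalin (adjusted p = 0.151) and Ermn (0.275) were no longer called, nor was Opalin without those numbered 1. With the batch as a covariate Mag and Cnp were called too (Mag at 0.0177), and with the batch numbers of the titles also Mbp (0.0477). Mobp lay below what the other 8 genes gave in HXB29/Ipcv (-0.53) and SHR/OlaIpcv (-0.50) and above it in HXB21/Ipcv (0.34). Ermn was below in HXB1/Ipcv and SHR/OlaIpcv (both -0.51). Mal and Cldn11 were instead above it in SHR/OlaIpcv, by 0.43 and 0.34. SHR/OlaIpcv thus combined the highest strain means of Mal and Cldn11 with low Mobp and Ermn. Its Cldn11 mean averaged libraries from 12.96 to 13.61 in animal 1 and from 13.44 to 13.70 in animal 4. Its 2 animals held Mal at 13.89 and 13.99, above the strain means of all other 68 strains. Single animals overlapped, since animal 1 of BN-Lx/Cub and animal 2 of BXH2/Cub also stood at 13.89.

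SHR/OlaIpcv and BN-Lx/Cub are the progenitors of the HXB/BXH strains, so they were compared directly. Mobp was 16.00, 15.42 and 15.68 in the 3 animals of BN-Lx/Cub and 14.98 and 14.98 in the 2 of SHR/OlaIpcv, without overlap. Mobp was higher in BN-Lx/Cub by 0.72 (95% interval 0.34 to 1.10, adjusted p = 0.0121, limma contrast). Ermn was 12.69, 11.95 and 12.05 in BN-Lx/Cub against 11.37 and 11.40, a difference of 0.84 ± 0.229 (SE, adjusted p = 0.0147). These 2 were the genes called of the 9, both higher in BN-Lx/Cub. Of all genes, 4.51% were called, 2.63% higher and 1.87% lower in that strain. Mal went the other way. The 3 BN-Lx/Cub animals had a mean of 13.59 ± 0.27 (SD) and the 2 of SHR/OlaIpcv one of 13.94 ± 0.069 (SD). This difference, -0.35 (-0.61 to -0.09), did not pass the test (adjusted p = 0.104, limma). Mog had a difference of 0.07 (-0.14 to 0.28), with the SHR/OlaIpcv animals at 12.16 and 12.46 on either side of the 3 BN-Lx/Cub animals at 12.38, 12.38 and 12.39. Both calls rested on animal 1 of BN-Lx/Cub, the library that stood farthest from the median library. In a fit without it that called 1.78% of all genes, Mobp differed by 0.57 (adjusted p = 0.201) and Ermn by 0.61 (adjusted p = 0.304), and Mal became the gene called, at -0.51 (adjusted p = 0.0299). With batch as a covariate neither was called (Mobp 0.86 and Ermn 0.99, both at an adjusted p of 0.601), in a fit that called 0.292% of all genes. Within the batches that hold both strains, 3, 4 and 6, Mobp was higher in BN-Lx/Cub by 0.82, 0.80 and 0.66 and Ermn by 0.74, 0.74 and 0.71, each with 1 or 2 libraries a side, the same BN-Lx/Cub animal in the last 2 and animal 1 alone for SHR/OlaIpcv. Mog was higher in BN-Lx/Cub there too, by 0.32, 0.41 and 0.38, and Mal lower by differences of -0.20, -0.49 and -0.43. Cldn11 changed sign between these batches (-0.17, 0.10 and 0.07), as did Mbp (-0.30, 0.21 and -0.06) and Mag (-0.34, 0.18 and -0.01). None of the 18 SHR/OlaIpcv libraries reached the lowest BN-Lx/Cub animal in Mobp, their highest being 15.21. For Ermn the single libraries did overlap. The highest of SHR/OlaIpcv animal 1 stood at 11.97, above animal 2 of BN-Lx/Cub at 11.95.

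The 30 HXB/BXH strains can be placed against these progenitors. For Mobp 24 strain means fell between the progenitor means, 2 below and 4 above, but 19 between, 2 below and 9 above when animal 1 of BN-Lx/Cub was left out. For Ermn 27 fell between and 3 below, and without that animal 24 between, 3 below and 3 above. For Mog 24 strains fell below both progenitor means, 12.31 and 12.38, but the libraries of SHR/OlaIpcv in the batches shared with BN-Lx/Cub lay lower, between 11.99 and 12.06, so that this count, which was 24 also without animal 1 of BN-Lx/Cub, depends on the SHR/OlaIpcv libraries averaged. For Mal 17 strains were below both progenitors with that animal and 9 without it, and for Cldn11 16 with it and 23 without it. No strain was above both for Mal or Cldn11 in either case. For Cldn11 these counts also depend on the SHR/OlaIpcv libraries averaged. In the shared batches 3, 4 and 6 those libraries lay at 13.33, 13.12 and 13.29, below the SHR/OlaIpcv mean of 13.47. The highest HXB/BXH strain mean of Cldn11 was 13.45, in BXH9/Cub.

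The transcript table held 28 RefSeq transcripts of the 9 genes, of which 21 differed between strains (limma F-test over all 45991 transcripts, which called 13.4%), and 8 of the 28 belonged to Mobp. Of those 8, 7 were called, all but XM_039080858 (R2 = 0.366). The curated transcript NM_012720 had an R2 of 0.870 (adjusted p = 2.07e-28), NM_001389272 0.841 (adjusted p = 1.48e-24) and the predicted XM_039080855 0.833 (adjusted p = 1.86e-23), each above 99.7% of all transcripts, whose median was 0.394. XM_039080862 followed the gene total with an r of 0.986 over strain means. XM_039080855 ran against the gene total over strain means (r = -0.456), although within strains it followed it (r = 0.410).

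XM_039080855 divided the HXB/BXH strains. Its strain means ran from 3.95 in BXH12/Cub to 7.76 in BXH9/Cub in 18 strains and from 10.17 in HXB4/Ipcv to 12.32 in BXH8/Cub in the other 12, with a gap of 2.41 between them that is larger than the SD within strains of 1.25. No animal lay between 8.77, the highest of the 53 animals of the former strains, and 9.42, the lowest of the 35 animals of the latter. The progenitors took opposite sides, with 8.31, 6.96 and 5.60 in the 3 animals of BN-Lx/Cub and 11.30 and 11.64 in the 2 of SHR/OlaIpcv. Most classic inbred strains had values like those of BN-Lx/Cub, but SHRSP/A3NCrl (11.59) and GK/FarMcwi (11.84) were as high as SHR/OlaIpcv, and these were also the 2 strains with the lowest Mobp gene level. The FXLE/LEXF strains filled the range from 4.10 to 9.83. Because this transcript was singled out after its values were seen, the division is a description, and Mobp was not tested between the strains on its sides. Inside the 18 lower strains the transcript and the gene total had an r of 0.515, and inside the 12 higher ones 0.0646. NM_012720 moved oppositely to XM_039080855 over the 69 strain means (r = -0.750), as did XM_039080856 (r = -0.713) and XM_039080863 (r = -0.685). Transcripts of a gene share most of their sequence and their levels were divided by an estimate, so a higher value of one can come with a lower value of another. The transcripts were matched to Mobp by accession without version.

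**Figure D5:**
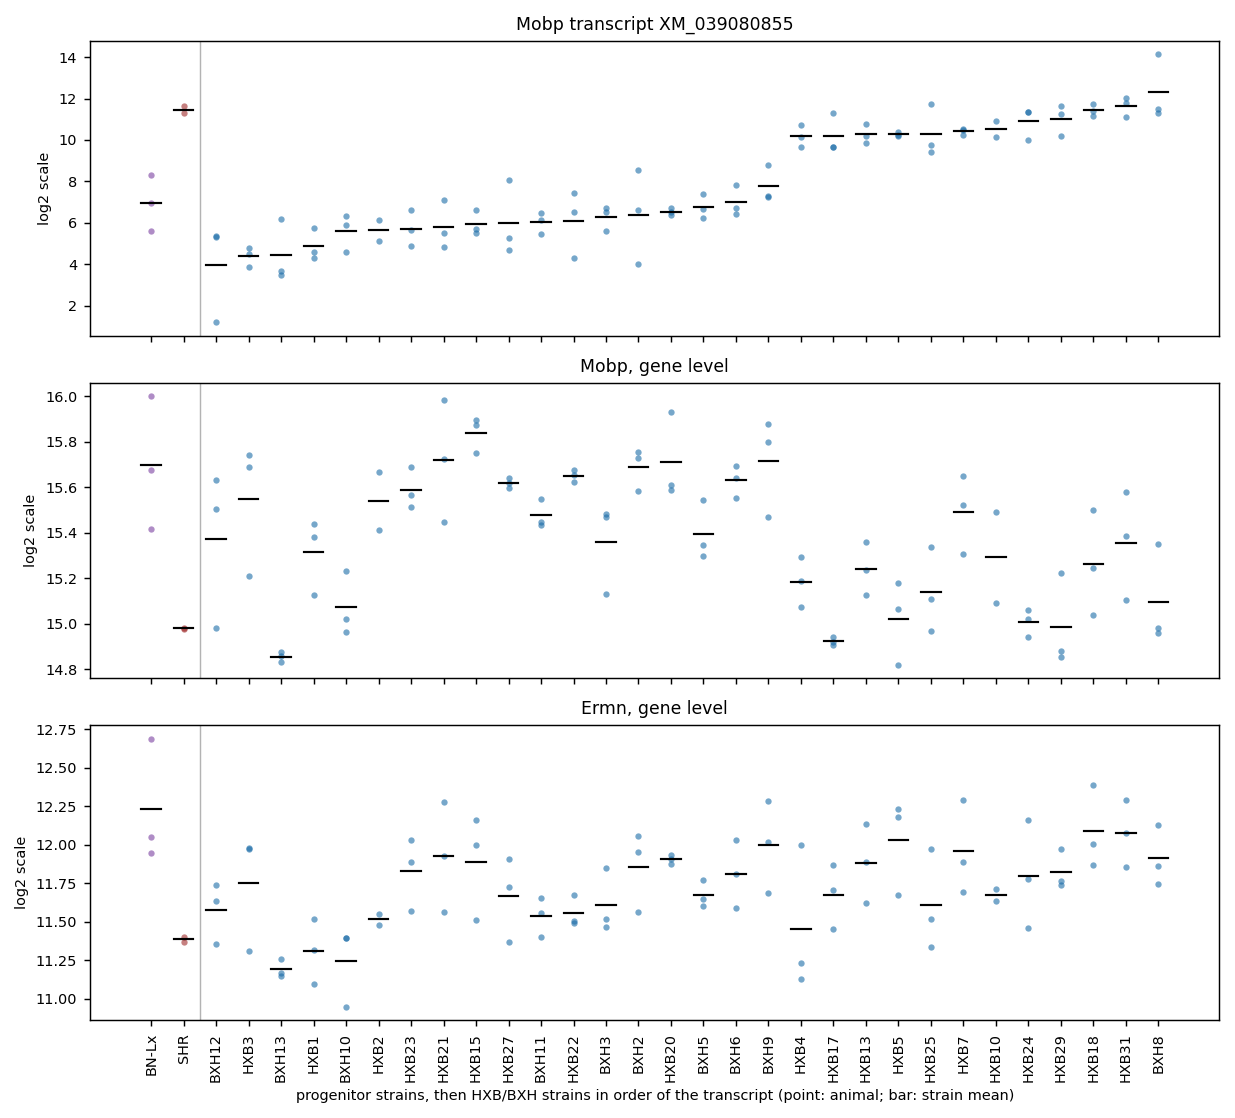
Levels (y axes, log2 scale) of the Mobp transcript XM_039080855, the Mobp gene and the Ermn gene in BN-Lx/Cub, SHR/OlaIpcv and the 30 HXB/BXH strains, in order of the transcript mean (x axis), with a point for each animal and a bar for each strain mean. The transcript leaves a gap of 2.41 between the strain means of BXH9/Cub and HXB4/Ipcv.

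For Mog 1 of 3 transcripts was called, and for Mbp 5 of 8, of which NM_017026 carried the gene total (r = 0.987 over strain means). NM_001025294 of Mbp had an R2 of 0.707 (adjusted p = 5.74e-11), above the 0.534 of the Mbp gene, and ranged from 9.73 in SHRSP/A3NCrl to 11.79 in PVG/Seac. All 3 transcripts of Mag were called, at R2 values of 0.536, 0.645 and 0.523, although the Mag gene was not. Both transcripts of Opalin were called (R2 of 0.581 and 0.664). Single transcripts represented Cldn11, Mal, Ermn and Cnp, and the last was not called (R2 = 0.460, adjusted p = 0.112, limma).

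Other oligodendrocyte genes, taken from lists by role, shared much of the pattern. Of 55 listed genes 53 were measured, and 40 of them differed between strains in the same F-test that called 36.8% of all genes. Their median R2 was 0.513 against 0.434 for all genes, and 52 of 53 had an r above 0 with the mean of the 9 genes within strains (median 0.412, where the median of all other genes was -0.0215). Among compact and adhesive myelin proteins 9 of 10 were called. Ninj2 had the highest R2, 0.732, followed by Pmp2 (0.567), whose mean level was only 3.60, and the lowest were Hapln2 (0.455) and Omg (0.463). In a list made up mainly of enzymes of myelin lipids 5 of 7 were called, led by Cers2 (0.614) and Fa2h (0.603), the ceramide synthase and fatty acid hydroxylase of very long-chain sphingolipids, with Gal3st1 (0.429), which sulfates galactosylceramide, and Gamt (0.440), an enzyme of creatine synthesis, at the other end. Of 22 other mature oligodendrocyte genes 18 were called, with Cryab (0.607) and Plekhb1 (0.594) highest and Cmtm5 (0.390) and Enpp2 (0.409) lowest. In a list named after precursors, whose genes need not all be confined to that stage, 5 of 7 were called. Enpp6 (0.724) and Pdgfra (0.674) were highest there and C1ql1 (0.381) and Cspg4 (0.405) lowest. Among transcription factors 3 of 7 were called, Zfp488 (0.699), Olig2 (0.560) and Olig1 (0.477), while Myrf (0.413, adjusted p = 0.170), Sox10 (0.430, adjusted p = 0.105), Nkx6-2 (0.407) and Nkx2-2 (0.370) were not. With the batch as a covariate 50 of the 53 were called, where 57.3% of all genes were. Among them were Sox10 (adjusted p = 0.00105, limma), Myrf (0.0191) and Nkx6-2 (0.0225), so that 6 of the 7 transcription factors were then called.

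The means of the lists differed in how they followed the 2 groups of myelin genes. Within strains the mean of the transcription factors had an r of 0.842 with the mean of Mbp, Mag and Cnp but -0.325 with the mean of Mobp, Mal and Ermn. For the precursor list these values were 0.795 and -0.105, and for the other mature genes 0.838 and 0.335. Single genes departed from their list. In the precursor list Enpp6 had 0.126 and 0.778 and Vcan -0.288 and 0.548. Among other mature genes Car2 had -0.114 and 0.888, Anln -0.0253 and 0.875 and Evi2a 0.0525 and 0.892. All of these genes were picked after their values were seen. The list with the lipid enzymes was more even, at 0.467 and 0.654, as were the compact and adhesive proteins, at 0.643 and 0.567. Such a division was not particular to oligodendrocyte genes. The astrocyte marker Gfap had 0.796 and -0.194 and the endothelial Cldn5 0.636 and -0.395. The endothelial Slco1a4 had -0.364 and 0.828 and the microglial P2ry12 -0.274 and 0.658 (picked after their values were seen). The means were 0.333 and 0.0342 for astrocyte markers and 0.141 and -0.327 for striatal genes. The gene closest to the mean of the 9 both within strains (r = 0.784) and over strain means (r = 0.821) was Cfap20dc. Within strains the 10 closest genes also included Ugt8 (0.783), which makes galactosylceramide, Bcas1 (0.760), Cpm (0.759), Enpp6 (0.746), Endod1 (0.746), Apod (0.742), Rasgrp3 (0.739) and Capn2 (0.737). Over strain means they included Bcas1 (0.806), Ugt8 (0.783), Nipal4 (0.769), Gltp (0.765), Apod (0.757), Cyp51 (0.741), Prr18 (0.737) and LOC103691527 (0.730). The lists of 10 shared 5 genes, and the 95th percentile of all other genes was 0.364 within strains and 0.369 over strain means.

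Markers of other cell types and of brain regions moved with the myelin genes in part. The mean of 6 Hox genes of the hindbrain, a region rich in myelinated tracts, had an r of 0.544 with the mean of the 9 within strains (rho = 0.536, and 0.519 without the 2 farthest animals), all 6 genes were above 0 (0.393 to 0.542), and the level of the list ran from 2.88 to 4.70 over animals. The olfactory bulb list of 4 genes went the other way (r = -0.243, 0 of 4 above 0, 7.74 to 9.33). In that list Tbr1 had the lowest r (-0.354), while Cdhr1, Doc2g and Eomes lay between -0.183 and -0.0808. Astrocyte markers had an r of 0.320 (4 of 6 above 0), endothelial markers 0.392 (3 of 4), Schwann cell markers 0.234 (3 of 4), neuron markers 0.128 (3 of 7), microglial markers 0.117 (2 of 5), liver genes 0.119 (4 of 4), choroid plexus markers 0.0506 (3 of 4), cerebellar genes 0.00748 (3 of 4) and striatal genes -0.0977 (1 of 4). With the hindbrain mean as a covariate, a choice made after the data were seen, 8 of the 9 genes still differed between strains, as did 34.6% of all genes. The part of brain dissection in the variation between animals was not tested further.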

How the data were processed

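Total RNA of rat brain, depleted of ribosomal RNA, was measured by RNA-seq. The authors trimmed reads with cutadapt 1.9.1, aligned them with HISAT2 and Bowtie2, assembled transcripts with StringTie and estimated levels with RSEM (submitters' processing notes), and deposited log2 values after the regularized log of DESeq2 and removal of unwanted variation. The genome build of the table used was not given in the sources used here, and depth was unknown. Coordinates of assembled transcripts deposited by the authors were on rn6. Libraries with the same strain and replicate number were averaged as 1 animal, except in the test of batch beside strain, where each library entered singly. The 5 strains with 1 animal were left out. Strain, batch, panel and progenitor effects were tested with limma 3.58.1 in R 4.3.3 and adjusted (Benjamini-Hochberg) over all features at 5%. The scripts were tested on simulated data. The rule for named genes took all 9 genes, the 2 genes of each list with the highest and the 2 with the lowest R2, those that passed the strain test, and the 10 genes most like the mean of the 9 within strains and over strain means. Listed genes that passed are mostly given as counts, Myrf and Sox10 were named beside the rule after their values were seen, and 1 item is not reported here. The members and lists were chosen with earlier results of these data known. Nothing states that animals of a strain came from separate litters, so p-values measure the spread between these animals. Earlier tables (v6 and v5), equal library medians, batch terms, 1 library per animal and left-out animals served as alternatives. The earlier tables held fewer libraries, 178 of 58 strains in v6 and 132 of 45 strains in v5. Their features differed as well, 18644 in v6 and 18309 in v5.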

Additional observations from a re-analysis of the deposited data

Results flagged for a closer look

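Cnp in the 6 repeat libraries of SHR/OlaIpcv animal 4 was set apart by 1 library at 14.37, while the other 5 lay between 14.66 and 14.73. The gap to the nearest library made up 0.786 of the whole range. Each of the 9 genes was examined in these libraries, and chance flags about 1 in 20 such groups.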

How the results depend on the processing

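No fitted result that passed 5% in the main fit or in the alternative reversed its direction. A change of sign that passed in neither was counted as kept. Over the 6 libraries of SHR/OlaIpcv animal 4, r of Mag and Cnp turned from 0.894 to -0.410 without the 2 farthest. That of Mbp and Cnp turned from 0.826 to -0.377. Over the 12 libraries of animal 1, r of Mobp and Mal turned from 0.278 to -0.0867. Cldn11, Mbp and Mag changed sign between single batches of the progenitors. Of the values recomputed, 914 were counted as kept, 55 moved, 49 weakened and 15 became stronger. Test results were kept on the same side of the threshold, and other values within the spread. Counts and shares were kept within a set factor of the main value. So the share of all genes called for strain, 36.8%, was counted as kept at 46.2% with the batch numbers of the titles. When all animals numbered 1, 2 or 3 were left out, between 5 and 6 of the 9 genes differed between strains (8 without animal 1 of BN-Lx/Cub), 3 to 5 within HXB/BXH, 0 to 1 within FXLE/LEXF, 0 to 3 within the classic strains, and 0 to 2 between BN-Lx/Cub and SHR/OlaIpcv (1 without animal 1 of BN-Lx/Cub). Between the progenitors 0 genes were called with the sequencing batch, with the batch numbers of the titles or with the replicate block in the limma fit, which called 0.292%, 0.0336% and 1.97% of all genes. In the v6 table and with 1 library per animal 1 was called, against 2.19% and 2.63% of all genes. Within the classic strains 2 were called with the batch numbers of the titles, against 15.6% of all genes. The share of all genes called for strain rose from 36.8% to 57.3% with the batch as a covariate and to 63.6% in the v5 table. That table held only 132 libraries of 45 strains and other features, so the 2 shares differ in more than the processing. The median r over strain means was 0.321 by Spearman, 0.293 without the 2 farthest strains and 0.335 to 0.398 with animals left out. Within strains it was 0.372 with library medians made equal, 0.221 within batches and 0.309 to 0.368 with animals left out. The causes were not tested. Animal numbers did not pair the animals (mean r 0.0130 for the same number in different strains, lowest -0.721). With the replicate block 8 genes were called over all strains, against 38.2% of all genes. Within HXB/BXH, FXLE/LEXF and the classic strains 8, 1 and 5 were called, against 19.1%, 4.3% and 17.1%. Beyond the shared level 6 were called. The alternatives with the hindbrain mean, without Y-low libraries and without animal 1 of BN-Lx/Cub (the counts against the progenitor means too), and those for transcripts, lists and repeats, were chosen after seeing the data.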
